A study of Mus musculus with 18 samples.

Results

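The genes described here belong to 5 families whose names refer to the motile cilium or the sperm tail: the cilia and flagella associated proteins (Cfap), the radial spoke head homologs (Rsph), the tektins (Tekt), the outer dense fibre proteins (Odf) and the sperm associated antigens (Spag). Members were chosen by symbol alone, as a family prefix followed by a number, without Cfap54, Cfap69, Cfap70, Cfap221, Spag6l, Spag16 and Spag17. Each gene was represented by 1 probe set, the one with the highest mean log2 signal over all arrays among those annotated to that gene alone. This gave 45 of the 18193 genes that have such a probe set, made up of 21 Cfap, 6 Rsph, 5 Tekt, 6 Odf and 7 Spag genes. A further 14 genes of the reference gene table carry such symbols and were not analysed here. RNA of whole testes was measured on 18 Affymetrix mouse expression arrays, from repro9/repro9 mice, which carry the repro9 allele of Mybl1 on both chromosomes, and from wild-type mice. There were 5 mutant and 3 wild-type arrays at 14 days postpartum (dpp) and 5 mutant and 5 wild-type arrays at 17 dpp. The ages were picked, per the series' design text, because testes of 14 dpp have reached early to middle pachytene and those of 17 dpp late pachytene and diplotene. No other allele, treatment or strain is named, and it is not stated which array came from which animal, so p-values measure the spread between arrays, which may be partly technical.

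A sperm tail is a motile cilium. Its core, the axoneme, is a ring of microtubule doublets around a central pair, and dynein arms and radial spokes on the doublets make and steer the beat. Tektins and several Cfap proteins line the inside of the doublets, and the Rsph proteins build the spokes. Odf1 and Odf2 are proteins of the dense fibres, which surround the axoneme in the sperm tail alone. Not all Odf proteins belong to these fibres: Odf4 is a membrane protein and Odf2l a centriole protein. Dynein arms are put together in the cytoplasm with the help of factors that include Spag1, Cfap298 and Cfap300. Spag genes were named after antisera against sperm and share no function: Spag5 is a protein of the mitotic spindle and Spag9 a scaffold of JNK signalling. The tail itself is built in spermatids, which follow the meiotic cells that these ages were chosen for, but many of its genes are first transcribed in spermatocytes. A-MYB, the product of Mybl1, is a transcription factor that spermatocytes need to get through pachytene.

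By the β-actin control probes, whose 3' signal was divided by their 5' signal, the arrays form 3 sets, for which the labels have no name. Set 1, with ratios of 2.31 to 2.92, held replicates 1 and 2 of both genotypes at 14 dpp, mutant replicates 1 and 2 at 17 dpp and wild-type replicate 1 at 17 dpp. Set 2 (1.45 to 1.49) held the other 14 dpp arrays and set 3 (103 to 125) the other 17 dpp arrays. On set 3, which holds most arrays of 17 dpp, the 5' signal was thus very low beside the 3' signal. Whether the sets differ in RNA quality or labelling was not tested. Every set holds both genotypes, while the ages share only set 1, so results are also given with the array set as a block or within a set where the set changes them. Probe sets were tested where 3 or more arrays had them above the array's 40th percentile of signal, which was 49.2 to 93.4. Of the 45 members 38 were tested. Differences are on the log2 scale, mutant minus wild type, with standard errors from a limma fit over all 18 arrays, and passed the test at an adjusted p (Benjamini-Hochberg over 34764 probe sets) below 0.05. In whole testes, fewer cells of a type and less RNA per cell cannot be told apart. The signal of Mybl1 itself was lower in mutants at 17 dpp, with 83.4 to 293 on mutant arrays and 1076 to 3959 on wild-type arrays (−3.46 ± 0.45, adjusted p = 5.25e-05). It gave −4.17 within set 3 and did not pass within set 1 (−1.92, adjusted p = 0.0760) or at 14 dpp (−2.33 ± 0.52, adjusted p = 0.112). The position of its probes relative to the repro9 change was not available, so this does not check the genotype labels.

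At 17 dpp many genes of the flagellum families were low in mutants, Cfap genes above all by count. Of the 38 tested members 17 fell and 0 rose in mutants, against 5.84% of 15266 tested genes that fell and 2.04% that rose. The median difference was −1.89 over the members and 0.26 over all tested genes, and 34 of the 38 differences were negative. By family, 12 of 18 Cfap genes, 1 of 5 Rsph genes, 1 of 4 Tekt genes, 1 of 4 Odf genes and 2 of 7 Spag genes fell. The calls of the Rsph, Tekt and Odf genes were lost when only the 17 dpp arrays were fitted. Some members passed the filter on low signal through wild-type arrays alone or nearly so. Cfap52 and Odf4 lay above the 40th percentile on no mutant array, and Rsph6a on no array of 14 dpp and 1 mutant array of 17 dpp. Such genes could hardly come out as higher in mutants, which limits the counts by direction at both ages. The same filter was applied to all genes. Median differences were −2.25 for Cfap, −2.17 for Rsph, −1.96 for Tekt, −0.29 for Odf and −0.78 for Spag. The groups did not overlap, all mutant arrays being below all wild-type arrays, for 16 of the 38, against 5% of all tested genes that were lower and 2.06% that were higher in this way. In a fit that takes the array set as a block, 24 members fell and 0 rose, against 11.5% of all tested genes that fell and 14.5% that rose. In signal, the median over the 21 Cfap genes of the geometric mean was 61.3 in mutants and 657 in wild type at 17 dpp, and 73.4 in mutants and 206 in wild type at 14 dpp. For the Spag genes the same median was 343 in mutants and 352 in wild type at 17 dpp, both being the values of Spag7, and 191 and 280 at 14 dpp. At 17 dpp the Rsph median was 44.8 in mutants and 149 in wild type. It was 25.6 and 80.9 for Tekt and 66.2 and 142 for Odf genes, in the same order.

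**Figure D1:**
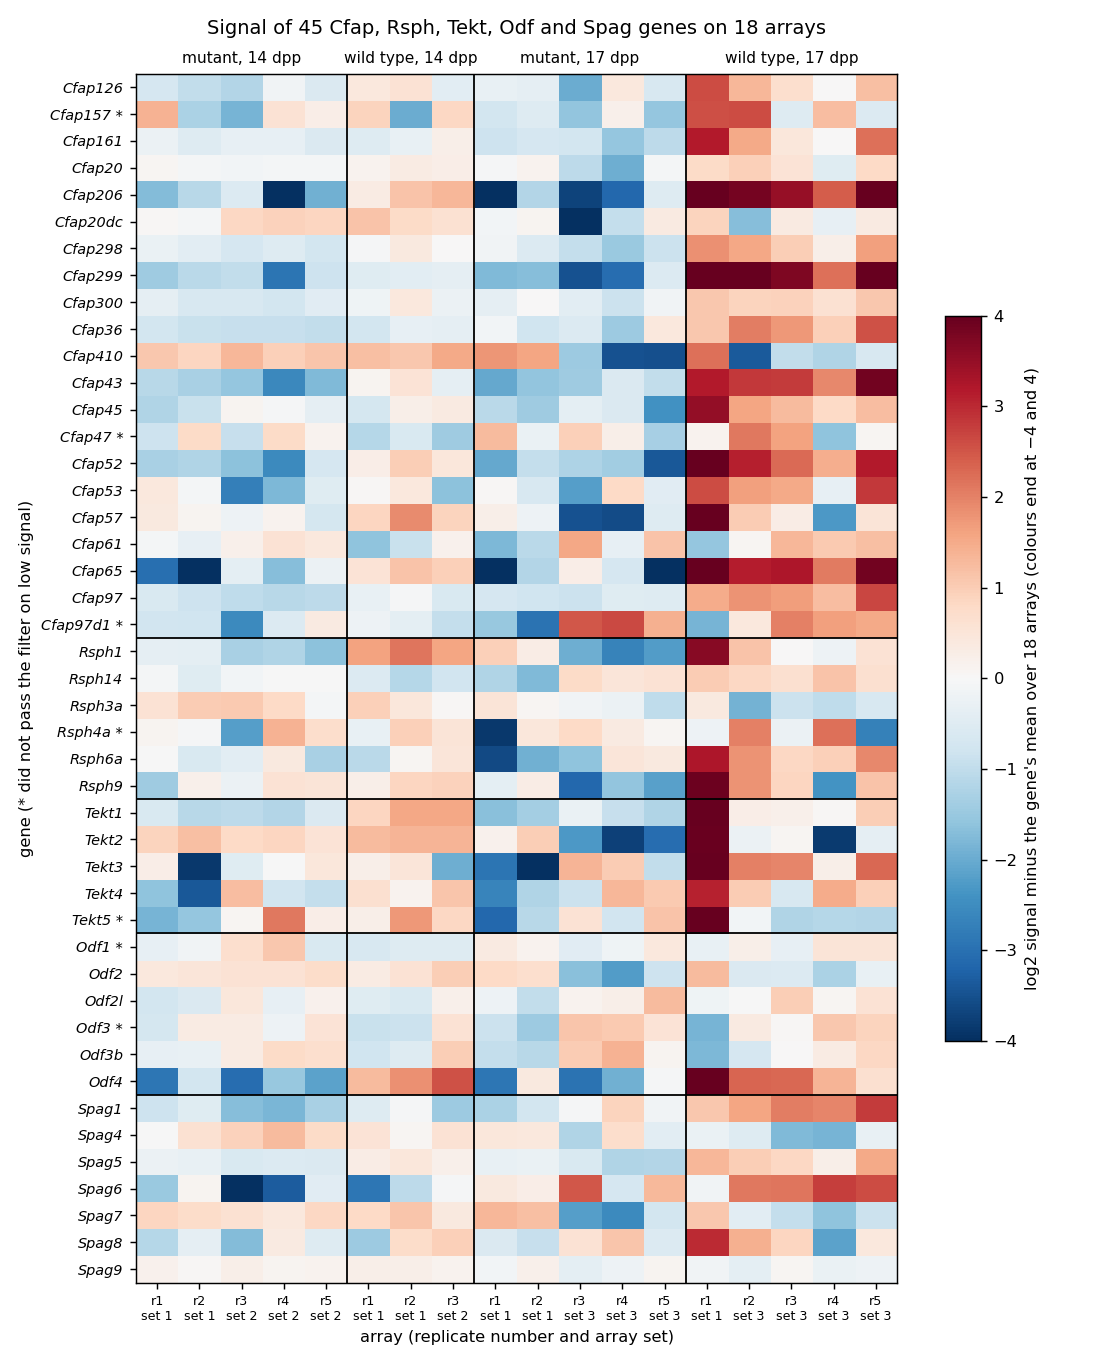
Log2 signal of all 45 genes (rows, by family) on all 18 arrays (columns, by group, with replicate number and array set), minus each gene's mean over the arrays. The wild-type arrays of 17 dpp are red for most Cfap genes, wild-type replicate 1 of 17 dpp is also the reddest for the tektins, and an asterisk marks the 7 genes that did not pass the filter on low signal.

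The largest falls among the members were of Cfap206 and Cfap299. Cfap206 (chromosome 4), a protein of the radial spoke base that docks a spoke in Tetrahymena, gave 7.70, 54.8, 9.32, 14.0 and 84.9 on the mutant arrays of 17 dpp, against 3754, 1724, 1376, 657 and 2493 on the wild-type arrays. The younger testes gave 36.4, 56.7, 84.5, 7.44 and 32.2 in mutants, against 155, 272 and 308 in wild type. Every wild-type array was above every mutant array at both ages, and only 2 mutant arrays of 17 dpp and 0 of 14 dpp passed the 40th percentile, so the mutant level is close to background. The difference was −6.31 ± 0.72 at 17 dpp (adjusted p = 1.15e-05). With each mutant array set to its own 40th percentile where its signal was lower, wild type was at least 23.9-fold higher. At 14 dpp it was −2.81 ± 0.83 (adjusted p = 0.608), with wild type at least 2.93-fold higher than the 40th percentile of the mutant arrays.

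Cfap299 (chromosome 5) gave 29.5, 31.1, 9.08, 12.2 and 69.5 in mutants at 17 dpp, against 1761, 1694, 1344, 464 and 3253 in wild type (−5.93 ± 0.58, adjusted p = 1.96e-06). At 14 dpp its signals were 37.6, 47.6, 51.8, 13.4 and 56.9 in mutants, against 72.1, 75.1 and 78.8 in wild type. All these values at 14 dpp were near background, in wild type too, and the wild-type signal was high at 17 dpp alone. The difference was nearly the same within both array sets, with −5.86 on set 1 and −6.11 on set 3.

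Cfap65, Cfap52 and Cfap43 were the next. Cfap65 (chromosome 1), which is mutated in some men with malformed sperm tails, gave 3.56, 34.3, 94.2, 49.4 and 4.98 in mutants at 17 dpp, against 1587, 693, 730.2, 329.8 and 1135 in wild type (−5.33 ± 0.87, adjusted p = 5.81e-04). Its 14 dpp signals were 9.73, 4.94, 59.5, 23.8 and 66.7 in mutants, against 114, 173 and 149.7 in wild type. Of its mutant arrays only 1 of 17 dpp lay above the 40th percentile, and the groups did not overlap at either age.

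Cfap52 (chromosome 11), a protein of the inner face of the doublets, gave 24.0, 50.8, 41.9, 38.2 and 9.56 in mutants at 17 dpp, against 2638, 849, 481, 269.7 and 887 in wild type (−4.74 ± 0.56, adjusted p = 1.93e-05). No mutant array of either age lay above the 40th percentile, so Cfap52 was at least 11.4-fold higher in wild type at 17 dpp. At 14 dpp the signals were 40.2, 43.0, 31.8, 16.9 and 62.6 in mutants, against 119, 195 and 137 in wild type. The wild-type arrays were above all mutant arrays there as well. A dimmer probe set of Cfap52 gave −1.59 at 17 dpp and did not pass the test (adjusted p = 0.447).

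Cfap43 (chromosome 19), another gene mutated in men with malformed sperm tails, gave 51.2, 70.4, 78.0, 142 and 107 in mutants at 17 dpp, against 1894, 1480.1, 1456, 790.1 and 3066 in wild type. Its difference of −4.23 ± 0.38 had the lowest adjusted p of the members (9.06e-07). On the 14 dpp arrays it gave 96.4, 85.9, 72.0, 35.1 and 62.2 in mutants, against 226, 306 and 163 in wild type (−1.75 ± 0.44, adjusted p = 0.249). Mutant signals overlapped between the ages, and the wild type was above them at each. A dimmer probe set of Cfap43 gave −0.61 at 17 dpp and did not pass the test.

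Cfap97 and Cfap36 differed from these in that the mutants kept a signal well above background at both ages. Cfap97 (chromosome 8), the mammalian homolog of hemingway, which fly cilia and sperm tails need, gave 2033, 1891, 1795, 2305 and 2278 in mutants at 17 dpp, against 9078, 11334, 10389, 7631 and 20613 in wild type (−2.44 ± 0.23, adjusted p = 1.35e-06). In the younger testes it gave 2151, 1835, 1625, 1512 and 1577 in mutants, against 2672, 3121 and 2122 in wild type. The groups overlapped slightly at 14 dpp and lay far apart at 17 dpp. Dimmer probe sets of Cfap97 gave −1.28 and −1.84 at 17 dpp and did not pass (adjusted p = 0.0810 and 0.0785). Cfap36 (chromosome 11), which binds the small GTPase ARL3, gave 3714, 2321, 2712, 1473 and 5396 in mutants at 17 dpp, against 8437, 16682, 13180.5, 7683 and 23190.2 in wild type (−2.16 ± 0.32, adjusted p = 2.21e-04). The 14 dpp arrays gave 2392, 2144, 2087, 2125 and 2031 in mutants, against 2379, 3164 and 3146 in wild type. Its 14 dpp groups overlapped. On set 1 alone, with 1 wild-type array, Cfap36 did not pass at 17 dpp (−1.52, adjusted p = 0.283).

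The other Cfap genes that fell at 17 dpp were Cfap45 and Cfap161, which line the inside of the doublets, Cfap126, which acts in the placing of basal bodies, and the dynein assembly factors Cfap298 and Cfap300. Cfap45 was at 14.9 to 61.8 in mutants and 141 to 909.6 in wild type, and Cfap161 at 81.3 to 149 in mutants and 240.1 to 2136 in wild type. Cfap298 was at 259.6 to 649.5 in mutants and 849.5 to 2562 in wild type, and Cfap300 at 456 to 829.1 in mutants and 1249.7 to 1745 in wild type. In these 4 genes the groups did not overlap, with differences of −2.85 ± 0.51, −2.44 ± 0.45, −2.04 ± 0.30 and −1.26 ± 0.21 in that order. Cfap126 was at 57.1 to 300.4 in mutants and 227 to 1358 in wild type, with overlap, and its call (−1.73 ± 0.46, adjusted p = 0.0321) was lost without mutant replicate 2, 3 or 5 or wild-type replicate 2 or 5 of 17 dpp. Within set 1 Cfap300 did not pass either (−1.25, adjusted p = 0.0739).

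Of the 6 tested Cfap genes that did not pass, all had negative differences at 17 dpp. Cfap53 (−2.14), a protein inside the doublets, Cfap57 (−2.34), which tethers an inner dynein arm in Chlamydomonas, and Cfap20 (−1.12), a protein of the seam where the tubules of a doublet join, passed with the array set as a block (adjusted p = 0.0124, 0.00395 and 0.00618). Cfap20dc, Cfap410 and Cfap61 gave −0.84, −0.22 and −0.52. A dimmer probe set of Cfap20dc gave 1.13, also without passing. Cfap410 was at 12.1, 12.2 and 49.999 on the set 3 mutant arrays and at 13.3, 68.6, 59.0 and 88.2 on the set 3 wild-type arrays, against 413 and 462 in mutants and 632 in wild type on set 1, so its array sets differed more than its genotypes. The 3 untested Cfap genes did not pass the filter: Cfap157 (5.23 to 126), Cfap47 (4.66 to 61.7) and Cfap97d1 (1.62 to 79.0). Cfap157 was above the 40th percentile on 2 wild-type arrays of 17 dpp.

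**Figure D2:**
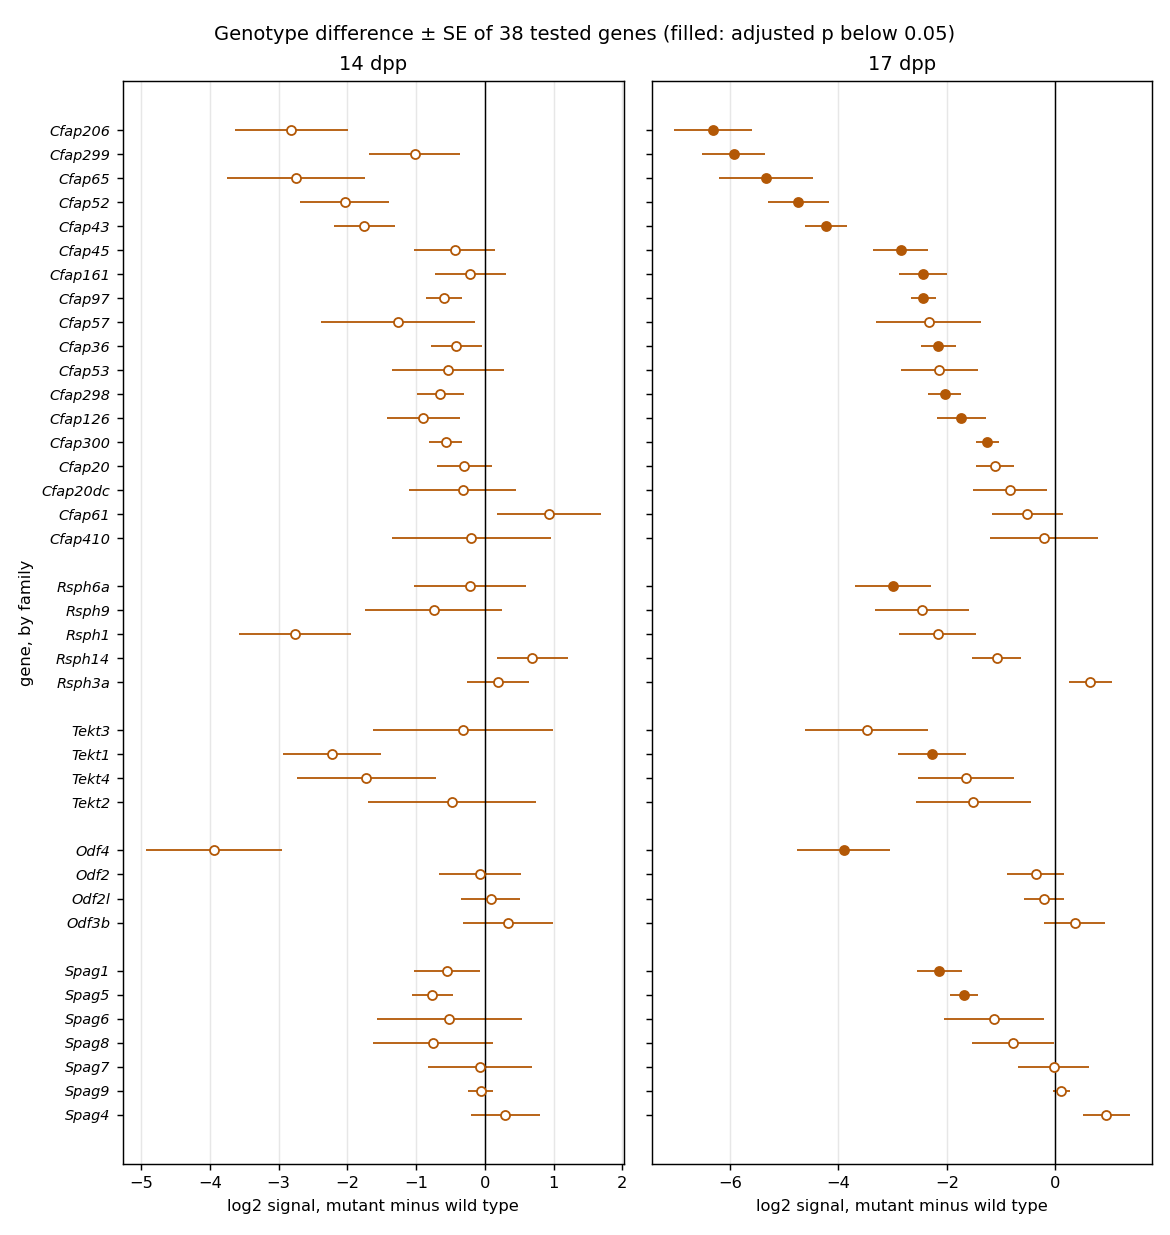
Difference in log2 signal, mutant minus wild type, with its standard error, for the 38 tested genes at 14 dpp (left) and 17 dpp (right), grouped by family. Filled points passed the test: 0 at 14 dpp and 17 at 17 dpp, of which 12 are Cfap genes, and the axes of the panels differ in range.

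Among the radial spoke genes only Rsph6a fell at 17 dpp. Rsph6a (chromosome 7), a spoke head protein of sperm, gave 4.51, 14.8, 18.2, 78.3 and 73.6 in mutants, against 518, 195, 98.9, 109 and 209.6 in wild type (−3.00 ± 0.70, adjusted p = 0.0140). The younger testes gave 54.7, 36.3, 41.8, 72.4 and 22.6 in mutants, against 26.4, 58.2 and 77.4 in wild type. It overlapped at 14 dpp and not at 17 dpp. The size at 17 dpp depended on the array set, with −5.99 within set 1 (1 wild-type array) and −1.62 within set 3, where it did not pass (adjusted p = 0.121).

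Rsph1 (chromosome 17), a spoke head protein of cilia and sperm, had the lowest adjusted p of the members at 14 dpp in the fit with a block for the array set, though not without it. It gave 1122, 1108, 591, 629 and 471 in mutants at 14 dpp, against 4441, 6404 and 4364 in wild type. At 17 dpp it gave 2834, 1781, 374, 227 and 306 in mutants, against 18271, 3186, 1487, 1276 and 2186 in wild type. The groups were apart at 14 dpp and overlapped at 17 dpp, where within each array set every mutant array was again below every wild-type array. Across all arrays neither difference passed (−2.76 ± 0.82, adjusted p = 0.639, at 14 dpp and −2.17 ± 0.71, adjusted p = 0.0887, at 17 dpp). Both passed once the array set was a block, the younger age with an adjusted p of 8.39e-05 and the older with −2.78 and 2.48e-07. In that fit Rsph1 was the 1 member that passed at 14 dpp, against 0.583% of all tested genes that fell and 0.00655% that rose. With the replicate number as a block, the numbers being treated as pairs at 14 dpp, it was again the 1 member that passed there (adjusted p = 0.0354), against 0.138% of all tested genes that fell.

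The other spoke genes did not pass at 17 dpp. Rsph9, a spoke head protein, was at 9.56 to 103 in mutants and 16.2 to 1285 in wild type at 17 dpp (−2.46, adjusted p = 0.115), and passed with the array set as a block (adjusted p = 0.00303). Rsph14 gave −1.08 at 17 dpp (adjusted p = 0.191) and was near background at 14 dpp, where its 5 mutant values (48.4 to 67.4) lay above its 3 wild-type values (30.5 to 45.7). Rsph3a, a protein of the spoke stalk, gave 0.64 at 17 dpp (adjusted p = 0.393), and it has a near copy, Rsph3b, whose RNA its probes may also bind, so that its signal is uncertain. Rsph4a, the spoke head protein of multiciliated tissues, was not tested and stayed at 1.36 to 90.8.

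Tekt1 (chromosome 11) was the tektin that fell at 17 dpp. Its signals were 38.04, 47.7, 101, 63.9 and 52.8 in mutants, against 2606, 147, 140.4, 126 and 242 in wild type (−2.27 ± 0.62, adjusted p = 0.0389). At 14 dpp they were 78.9, 56.7, 59.4, 54.1 and 81.0 in mutants, against 221, 354 and 358 in wild type (−2.22 ± 0.72, adjusted p = 0.971). The groups were apart at both ages, and wild-type replicate 1 of 17 dpp stood far above the other wild-type arrays. The call at 17 dpp was lost in 13 of the 18 fits that left out 1 array. It held without that high array, and the difference was −5.94 within set 1 and −1.18 within set 3 (adjusted p = 0.0474).

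The other tektins showed the same array in front. Tekt3 gave 903 on wild-type replicate 1 of 17 dpp and 42.3 to 178 on the other wild-type arrays, against 1.39 to 92.5 in mutants (−3.48, adjusted p = 0.0886). Tekt2, whose loss impairs sperm motility in mice, gave 1199.6 on that array and 5.45 to 81.8 on the others, against 5.77 to 151 in mutants (−1.51, adjusted p = 0.463). Tekt4 gave 301 there and 23.1 to 99.7 on the others, against 5.72 to 88.6 in mutants (−1.65, adjusted p = 0.316). Tekt5 did not pass the filter, yet it too gave 357 there against 1.26 to 47.3 on the other 17 arrays of all groups. That array is also the 1 wild-type array of set 1 at this age, and the part of the array set in these values was not tested. It had the highest member median of all 18, with a shift of 2.40 from the members' own means, while that over all genes was −0.003.

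**Figure D3:**
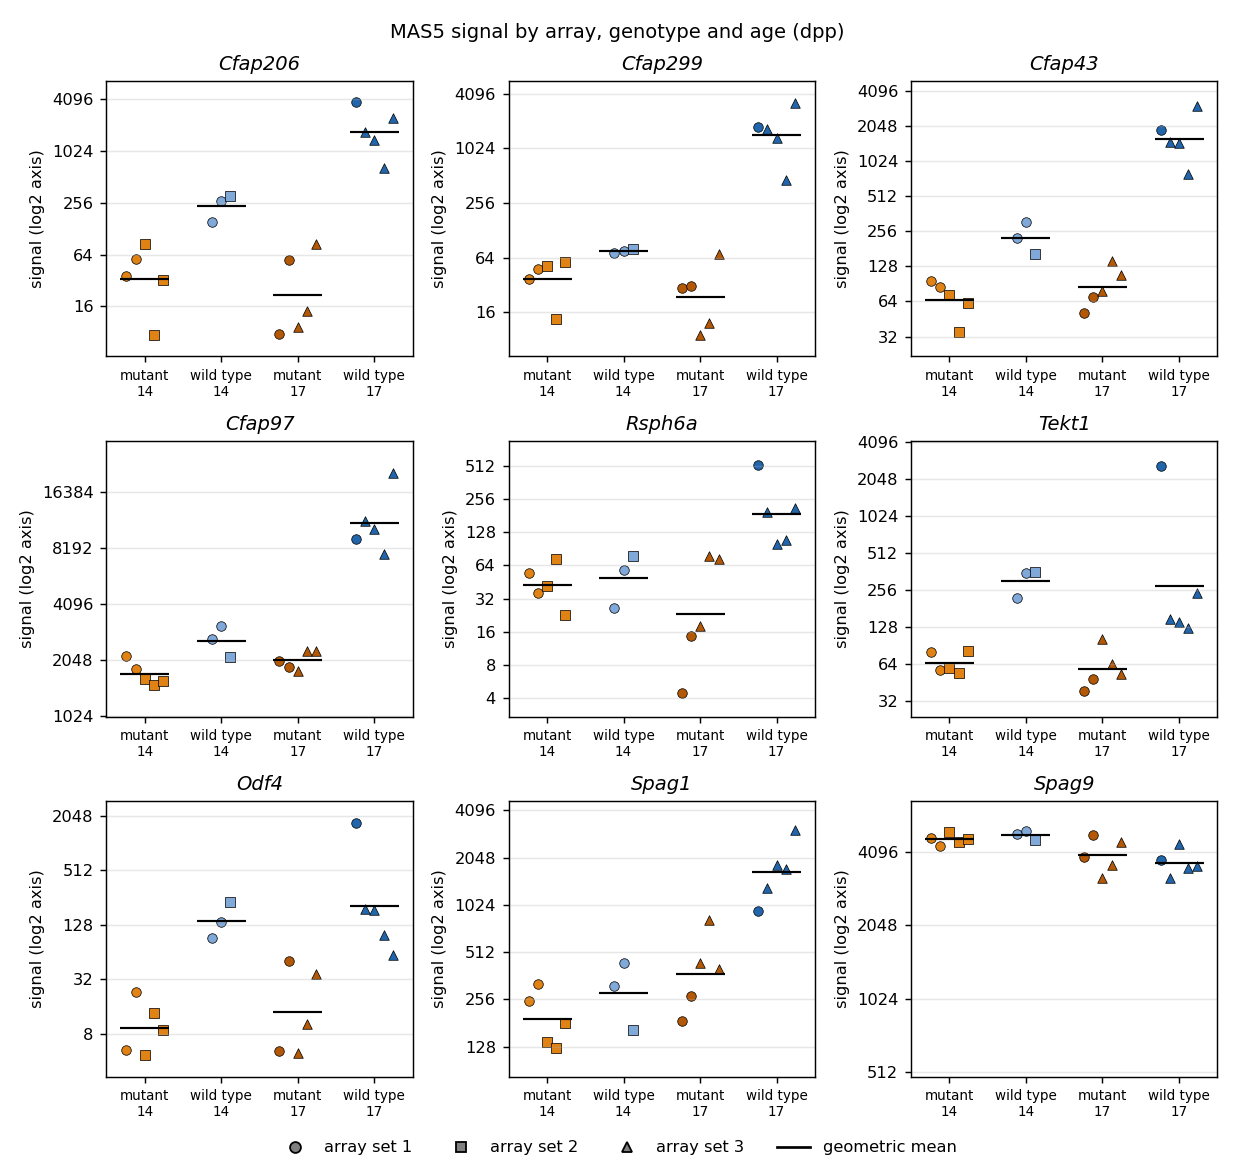
Signal on a log2 axis of 9 of the named genes on each array, by genotype and age, with point shapes for the array sets and a bar at the geometric mean. Wild-type arrays of 17 dpp lie above all mutant arrays in each panel except that of Spag9, and in the panel of Tekt1 a single wild-type array of set 1, at 2606, stands far above the others.

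Of the outer dense fibre genes, Odf4 fell and the others did not pass. Odf4 (chromosome 11), a membrane protein of the sperm tail, gave 5.17, 50.8, 4.90, 10.2 and 36.7 in mutants at 17 dpp, against 1702, 192, 187, 97.9 and 59.8 in wild type (−3.90 ± 0.86, adjusted p = 0.00880). Its 14 dpp signals were 5.21, 23.2, 4.66, 13.3 and 8.76 in mutants, against 92.3, 136 and 226 in wild type (−3.94 ± 0.99, adjusted p = 0.235). No mutant array of either age lay above the 40th percentile, so the wild-type mean was at least 3.05-fold higher at 17 dpp and at least 1.77-fold higher at 14 dpp. With the mutant signal at background, the sizes at these ages cannot be compared: the difference between them was 0.04 ± 1.31 over all arrays (adjusted p = 0.998) and −3.36 ± 1.82 within set 1.

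Odf2 (chromosome 2) is a dense fibre protein that also sits on the mother centriole of other cells. It gave 2132, 1984, 389.6, 261 and 702 in mutants at 17 dpp, against 2977, 826, 847, 513 and 1007 in wild type (−0.37 ± 0.52, adjusted p = 0.751). On the 14 dpp arrays it gave 1644, 1729, 1861, 1866 and 2057 in mutants, against 1566, 1834 and 2454 in wild type. Its groups overlapped at both ages and set 1 was higher than set 3, but with the array set as a block it passed at 17 dpp (−0.80, adjusted p = 0.0191). Odf2l, a centriole protein, and Odf3b gave −0.21 and 0.35 at 17 dpp, and neither passed. Odf1, the main dense fibre protein of spermatids, stayed at 19.6 to 65.3 and Odf3 at 2.77 to 21.6 on all arrays, and neither was tested.

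The Spag genes that fell were Spag1 and Spag5. Spag1 (chromosome 15), the dynein assembly factor, gave 186, 269, 436, 819 and 401 in mutants at 17 dpp, against 931, 1319, 1849, 1737 and 3069.5 in wild type (−2.15 ± 0.42, adjusted p = 0.00315). In the younger testes it gave 250.5, 321, 137, 126 and 182 in mutants, against 311, 436 and 162 in wild type, and the groups overlapped there. Without the set 3 arrays Spag1 did not pass at 17 dpp (−2.06, adjusted p = 0.0809). Spag5 (chromosome 11), the spindle protein astrin, gave 683, 692, 547, 365 and 372 in mutants at 17 dpp, against 2077, 1645, 1477, 984 and 2382 in wild type (−1.68 ± 0.26, adjusted p = 3.25e-04). The 14 dpp arrays gave 712, 683, 546, 568.1 and 563 in mutants, against 1017, 1155 and 957 in wild type. It was thus lower in mutants on every array at both ages, and another probe set fell too (−1.83), while a further one gave 0.35 without passing.

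Spag9 (chromosome 11), the JNK scaffold, gave 3907, 4828, 3186, 3625 and 4483 in mutants at 17 dpp, against 3804, 3194, 4432, 3519 and 3599.9 in wild type. The younger testes gave 4689, 4334, 4948, 4512 and 4627 in mutants, against 4871, 4977 and 4579 in wild type. The groups overlapped at both ages, with differences of 0.10 ± 0.16 at 17 dpp (adjusted p = 0.769) and −0.06 ± 0.18 at 14 dpp. Dimmer probe sets of Spag9 gave −0.94 and 0.95 at 17 dpp and did not pass (adjusted p = 0.186 and 0.480). Spag7 gave −0.03, Spag8, another protein inside the doublets, gave −0.78, and Spag4, a SUN domain protein of the spermatid nuclear envelope, gave 0.94 at 17 dpp, and none of them passed. Spag6, a protein of the central pair, gave −1.13 and was near background on most arrays. Its close relative Spag6l is not among the genes described here, and the extent to which the probes tell these copies apart was not tested.

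At 14 dpp no member passed the test, against 0.321% of all tested genes that fell and 0% that rose. Of the 38 members 10 had an unadjusted p below 0.05, all of them lower in mutants, against 2% of all tested genes that were lower and 0.4% that were higher at that threshold: Cfap206, Cfap43, Cfap52, Cfap65, Cfap300, Cfap97, Rsph1, Tekt1, Odf4 and Spag5. The median difference was −0.53 over the members and 0.003 over all genes, and 32 of 38 differences were negative. Mutant arrays were all below the wild-type arrays for 14 members and all above them for 1 (Rsph14), against 4.49% and 2.26% of all tested genes. Array weights raised the count of members that passed to 15, of which 14 were lower and Cfap61 was higher in mutants, against 7.78% of all tested genes that fell and 5.49% that rose.

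The genotype difference was larger at 17 than at 14 dpp for 2 members, against 0.36% of all tested genes whose difference moved downward. Cfap299 passed with −4.91 ± 0.88 (adjusted p = 0.0305) and Cfap97 with −1.84 ± 0.35 (adjusted p = 0.0346). Both calls were lost when the arrays were scaled to a common median, when any 1 of mutant replicates 1, 2, 3 and 5 of 14 dpp or of the 3 wild-type arrays of 14 dpp was left out, and without wild-type replicate 2 or 3 of 17 dpp. When the array set was a block, Cfap43, Cfap298 and Spag1 passed as well, which makes 5, against 1.82% of all tested genes that moved downward and 0.0786% that moved upward. Medians of this change were −1.68 for Cfap, where all 18 values were negative, −1.72 for Rsph, −0.54 for Tekt, −0.14 for Odf, −0.02 for Spag and 0.22 over all tested genes. The difference between families was not tested.

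With age, 13 members passed the test as higher in wild type and 0 in mutants, while only 2 passed the test of the difference between the genotypes in this change. In wild type 13 of the 38 were higher at 17 than at 14 dpp and 0 lower, against 7.05% of all tested genes that were higher and 18.9% that were lower. Of the 38 changes 12 were negative, and no Tekt or Odf gene passed. The median change was 0.78 over the members and −0.41 over all genes. Of the 13, 10 were Cfap genes, led by Cfap299 (4.25 ± 0.67, adjusted p = 9.21e-04), Cfap206 (2.86 ± 0.83, adjusted p = 0.0246) and Cfap43 (2.82 ± 0.44, adjusted p = 9.44e-04). The others were Cfap36, Cfap45, Cfap52, Cfap97, Cfap161, Cfap298 and Cfap300, with Spag1 (2.55), Spag6 (3.23) and Rsph14 (1.68). Spag6 and Rsph14 lay above the 40th percentile on no array of 14 dpp, so they could hardly come out as lower with age. In mutants 0 of 38 passed, against 1.12% lower and 0.648% higher over all genes, and 4 had an unadjusted p below 0.05 downward and 2 upward, against 21.2% and 9.09% of all genes. Cfap97 changed by 0.25 ± 0.23 and Cfap43 by 0.34 ± 0.38 in mutants. Spag6, near background on most arrays, changed by 2.61 in mutants and did not pass there.

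Age and array set are partly confounded, since set 2 holds only the younger and set 3 only the older arrays. A block for the array set left 12 members higher with age in wild type, against 4.83% of all tested genes that were higher and 4.57% that were lower, among them 10 of the 13, with Rsph1 and Spag5 gained and Cfap206, Rsph14 and Spag6 lost. In mutants 0 members passed with the block, against 0.642% lower and 0.144% higher over all genes. The count in wild type fell to 6 within set 1, against 1.98% of all genes that were higher and 0.766% that were lower there, to 5 without wild-type replicate 1 or 3 of 14 dpp, to 7 without wild-type replicate 2 of 14 dpp or replicate 5 of 17 dpp and to 8 without wild-type replicate 2 of 17 dpp. Rsph1 gave −0.74 with no block and 1.46 with it (adjusted p = 0.0168), so its direction with age in wild type depends on the array sets.

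**Figure D4:**
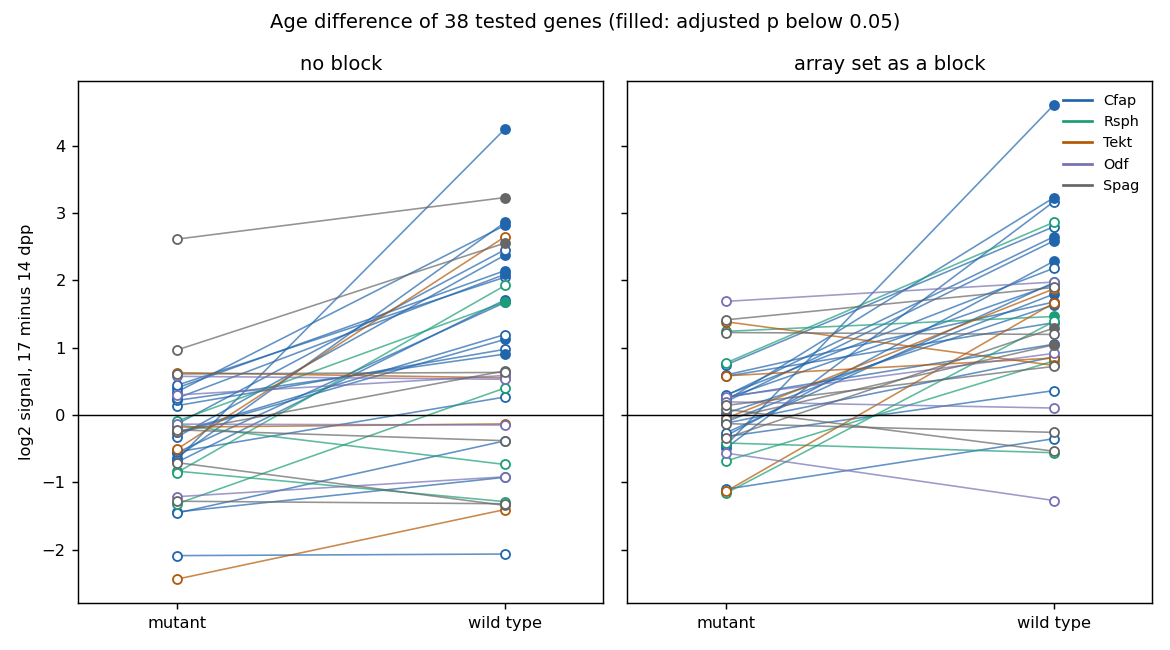
Difference in log2 signal, 17 minus 14 dpp, in mutants (left point) and wild type (right point) for the 38 tested genes, each joined by a line in its family's colour, without a block (left panel) and with the array set as a block (right panel). Filled points passed the test: 0 in mutants in both panels, and 13 in wild type without and 12 with the block.

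Promoter windows were read for members that fell together at 17 dpp, because Mybl1 encodes a DNA-binding factor. The windows run from 250 bases before to 50 bases after the annotated start (RefSeq, GRCm38.p6), and 36 of the 45 members have one, while Cfap299, Cfap65, Cfap97 and Spag1 are among those without one here. Windows were searched on both strands for AACNG, the core of the MYB site, for the longer form AACNGNCA, which contains that core, and for GTTGCC, an arm of the X-box bound by RFX factors. Where a gene has several windows, the first one listed was read. The motifs were chosen with the results known and are given as a description. The longer form was found in 5 of 13 windows of members that fell at 17 dpp (38.5%), in 0 of 19 windows of tested members that did not pass and in 11.8% of 27025 windows of all genes. The core was in 34 of the 36 member windows (94.4%) and in 80.4% of all windows, and the X-box arm in 11 of 36 (30.6%) and in 12.7% of all windows. The arm was in 30.8% of the windows of members that fell and in 31.6% of those of tested members that did not pass. Member windows differed from all windows in base composition, with a median GC share of 56.3% against 52.7% and a median CpG count of 15.5 against 7. The part of this in the motif shares was not tested. The 5 windows with the longer form are shown with that of Cfap206, the member with the largest fall, which has none. Capitals mark AACNGNCA on either strand, and the sequences are written in the direction of the gene.
Cfap161, chr7:83794790-83795089, minus strand: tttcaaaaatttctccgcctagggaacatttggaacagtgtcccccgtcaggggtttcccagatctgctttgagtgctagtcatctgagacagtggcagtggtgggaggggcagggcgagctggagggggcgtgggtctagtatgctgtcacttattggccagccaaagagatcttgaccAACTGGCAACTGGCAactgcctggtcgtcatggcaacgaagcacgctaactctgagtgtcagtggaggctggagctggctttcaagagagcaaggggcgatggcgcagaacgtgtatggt
Cfap298, chr16:90934800-90935099, minus strand: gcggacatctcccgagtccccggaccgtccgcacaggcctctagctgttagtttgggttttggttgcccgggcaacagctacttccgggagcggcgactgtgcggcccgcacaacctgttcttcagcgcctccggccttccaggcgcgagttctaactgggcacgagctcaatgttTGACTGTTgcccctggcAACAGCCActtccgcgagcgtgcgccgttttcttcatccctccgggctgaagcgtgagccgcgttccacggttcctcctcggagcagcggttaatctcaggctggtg
Cfap300, chr9:8042826-8043125, minus strand: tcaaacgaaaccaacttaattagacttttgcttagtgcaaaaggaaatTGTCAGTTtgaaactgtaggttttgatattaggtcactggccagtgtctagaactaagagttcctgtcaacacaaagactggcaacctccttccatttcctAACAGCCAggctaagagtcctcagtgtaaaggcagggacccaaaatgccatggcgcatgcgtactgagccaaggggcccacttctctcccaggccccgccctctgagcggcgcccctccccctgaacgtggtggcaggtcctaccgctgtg
Odf4, chr11:68927032-68927331, minus strand: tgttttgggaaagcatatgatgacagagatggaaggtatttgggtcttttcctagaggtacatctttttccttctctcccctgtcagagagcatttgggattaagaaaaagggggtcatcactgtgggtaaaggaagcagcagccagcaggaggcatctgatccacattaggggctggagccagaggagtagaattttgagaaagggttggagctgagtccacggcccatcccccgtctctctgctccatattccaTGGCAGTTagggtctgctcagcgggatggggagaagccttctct
Spag5, chr11:78301341-78301640, plus strand: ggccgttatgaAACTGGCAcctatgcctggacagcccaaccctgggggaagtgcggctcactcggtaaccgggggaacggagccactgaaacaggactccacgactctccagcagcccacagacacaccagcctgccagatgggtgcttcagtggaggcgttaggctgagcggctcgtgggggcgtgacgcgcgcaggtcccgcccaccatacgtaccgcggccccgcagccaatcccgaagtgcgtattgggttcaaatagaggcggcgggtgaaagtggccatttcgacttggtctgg
Cfap206, chr4:34730157-34730456, minus strand: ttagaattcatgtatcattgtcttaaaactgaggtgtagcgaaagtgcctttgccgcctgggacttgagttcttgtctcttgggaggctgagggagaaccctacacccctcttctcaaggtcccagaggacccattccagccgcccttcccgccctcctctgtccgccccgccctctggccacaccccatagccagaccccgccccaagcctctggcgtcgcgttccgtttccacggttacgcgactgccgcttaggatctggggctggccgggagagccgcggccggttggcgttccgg
Counted from the start as +1, the Cfap161 window holds the longer form at −70 to −63 and at −63 to −56, which share 1 base and overlap X-box arms at −66 to −61 and −59 to −54. The Cfap298 window holds it at −74 to −67 and −57 to −50, next to X-box arms at −69 to −64 and −60 to −55 that overlap it. In Cfap300 it stands at −202 to −195 and −101 to −94, in Spag5 at −239 to −232 and in Odf4 at 7 to 14, after the start. A match in these letters is not a bound site.

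Flagellum genes of other names fell in mutants too, in part. Of a list of 50 such genes 39 were tested, and 16 fell and 1 rose in mutants at 17 dpp, against the 5.84% and 2.04% of all tested genes, with a median of −1.70 and 28 negative differences. At 14 dpp 2 fell (Meig1 and Ldhc), against 0.321% of all genes, with a median of −0.58, and in wild type 12 were higher with age, against 7.05%. Ldhc is also counted among the pachytene spermatocyte markers below, so these lists are not separate. It had the largest fall of this list at 17 dpp (−7.84 ± 0.77) and was among those higher with age in wild type. Meig1, which sperm tail assembly needs, gave −5.10 ± 0.26 at 17 dpp (adjusted p = 2.04e-09), the dynein assembly factor Lrrc6 −4.53 ± 0.42 (adjusted p = 1.15e-06) and Ccdc39, a ruler protein of the axoneme, −4.35 ± 0.45 (adjusted p = 3.77e-06). Efhc2 was the 1 gene higher in mutants (1.22 ± 0.28, adjusted p = 0.0126).

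Markers of other cell types were measured beside these changes, and their part in the result was not tested. Of 9 pachytene spermatocyte markers 7 fell in mutants at 17 dpp, against 5.84% of all tested genes, and 6 at 14 dpp, against 0.321%. Sycp3 (−0.55) and H1f6 (0.04) did not pass at 17 dpp. The summed signal of the 9 was 10389 to 39561 in mutants and 60416 to 140561 in wild type at 17 dpp. Sycp3, which is part of this sum, had a geometric mean of 17700 in mutants and 25990 in wild type. For 8 Sertoli cell markers the sum was 15561 to 25524 in mutants and 11078 to 14393 in wild type at 17 dpp, with a median difference of 0.70 and none called. Spermatogonial, Leydig, myoid, macrophage and endothelial lists had medians of 0.96, 1.004, 0.68, 1.05 and 0.41 at 17 dpp, where the median over all tested genes was 0.26. Of their 22 tested markers 1 passed, a macrophage gene that was higher in mutants, against 2.04% of all tested genes that rose. Markers of the epididymis and efferent ducts, whose epithelium also carries motile cilia, summed to 139 to 439 in mutants and 138 to 387 in wild type at 17 dpp, with none of 4 tested called. Foxj1, the regulator of motile cilia in that list, was above the 40th percentile on 1 mutant and 0 wild-type arrays of 17 dpp. Round spermatid markers summed to 471 to 1733 in mutants and 354 to 832 in wild type at 17 dpp, with none of 5 tested called. Of the 6 on the array only Tnp2 was above that percentile on no array, while Spaca1 was above it on every array.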

How the data were processed

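Total RNA of whole testes was labelled and hybridised to 1 Affymetrix array per sample. The authors deposited MAS5 signal intensity on a linear scale, per the submitters' processing notes, and used Affymetrix GCOS, per the series' design text. Trimmed of 2% at each end, the values averaged 500.0 on 11 arrays and 394.9 on the 7 arrays of set 3, and no source used here says why.

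Of 45101 probe sets, 64 controls were left out, and 34764 of the other 45037 passed the filter. The annotation gives 1 gene for 34945 of those, several genes for 932 and no gene for 9160. All 45 members matched the reference table (GRCm38.p6) by Entrez ID. The log2 of the deposited intensity went into a limma fit (version 3.58.1, R 4.3.3) with 1 mean per group over all 18 arrays, an intensity trend and two-sided tests. No normalization was added. The script was tested on simulated data that held no array sets and no background level, so this does not check how either acts on the results. The array sets were bounded at ratios of 1.9 and 10. Correlations between arrays of the same group were 0.818 to 0.956 where they shared a set and 0.615 to 0.912 where they did not, and the number of arrays limits the precision.

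Members, lists, motifs and tests were chosen with earlier results of these data known. Values on every array are given for the members with the largest calls at 17 dpp (up to 5 per family), for each family's member with the highest wild-type signal at 17 dpp, and for every member called at 14 dpp, higher in mutants at 17 dpp or by the difference between the ages.

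Replicate numbers come from the sample titles. The deviations of same-numbered mutant and wild-type arrays from their group means correlated at 0.283, 0.355 and 0.385 at 14 dpp, and these were treated as pairs, although differently numbered arrays of 1 set gave 0.288 to 0.384. At 17 dpp the 5 correlations were −0.228 to 0.777, and the arrays were not treated as pairs.

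Alternatives changed the scaling, the filter, the pseudocount (32), the trend, array weights, blocks, array sets, the probe set rule, the threshold and the arrays in the fit.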

Additional observations from a re-analysis of the deposited data

Results flagged for a closer look

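Tekt1 stood out on wild-type replicate 1 of 17 dpp, with a signal of 2606, while the other 4 wild-type arrays of that age were at 126 to 242. That array was the 1 wild-type array of set 1 at 17 dpp. Cfap299 was low on mutant replicate 4 of 14 dpp, with 13.4 against 37.6 to 56.9 on the other 4 mutant arrays, and all 5 values were below the 40th percentile of their arrays. Of 45 groups of arrays examined, 2 had such a distant array, and chance gives about 1 in 20.

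The genotype difference changed between the ages for 2 members by the test of that change: Cfap299 (−4.91) and Cfap97 (−1.84), both larger at 17 dpp.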

How the results depend on the processing

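At 17 dpp every alternative kept 13 (only the 17 dpp arrays) to 24 members lower (array set as a block) and none higher, and leaving out single arrays gave 15 to 21. The fit of only the 17 dpp arrays lost Cfap126, Odf4, Rsph6a and Tekt1, among them the only members called in the Rsph, Tekt and Odf families. Fits without set 3 or within set 1 hold only 1 wild-type array of 17 dpp. At 14 dpp the count of 0 became 15 with array weights, 3 without set 3 or with only the 14 dpp arrays, and 1 with the array set as a block, within set 1 or within set 2, while leaving out single arrays gave 0 to 1. The difference between the ages, with 2 members, gave 0 on a common median, with quantile normalization, within set 1 and at a threshold of 0.025, 1 without the intensity trend and with the mean of a gene's probe sets, 4 with log2(value + 32), 5 with the array set as a block, 12 without set 3 and 0 to 3 when single arrays were left out. The 13 members higher with age in wild type became 26 with array weights (18 higher, 8 lower, where 56.2% of all tested genes passed), 8 at a threshold of 0.025, 6 within set 1 and 5 to 15 without single arrays. In mutants the count of 0 became 9 with array weights, where 39.8% of all tested genes passed, 1 without set 3, where 5.80% did, and 0 to 3 without single arrays.

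With the replicate block, 1 member passed at 14 dpp (Rsph1), 21 at 17 dpp and 1 in the difference between the ages, and changes with age could not be fitted. At 17 dpp this block lost Tekt1 and gained 5 members, and the numbers there are not pairs. Tekt1 was also lost with log2(value + 32) and array weights. The mean of a gene's probe sets lost Cfap298, Cfap43 and Spag5. The sign turned under some alternative for 12 members at 14 dpp and 11 at 17 dpp, none of which had passed there, among them Tekt3 at 14 dpp (−2.17 to 1.94) and Spag8 at 17 dpp (−3.73 to 0.23). Changes with age took the other sign under some alternative for 15 members in wild type and 30 in mutants, none of which had passed there. Without set 3, which leaves 1 wild-type array at 17 dpp, wild-type values were 0.94 for Cfap410, 3.40 for Cfap57 and 1.87 for Rsph1. Tekt1 gave 3.10 and Tekt2 2.63 there, and Tekt1 gave 3.22 within set 1, which holds the same array. With the array set as a block Rsph1 gave 1.46 in wild type and passed. In mutants Rsph1 gave 1.61 without set 3. The cause was not tested. Low signal limits the size of falls in genes whose mutant arrays lie near background: on the log2(value + 32) scale Cfap206 gave −4.87 and Odf4 −2.32 at 17 dpp.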
